A study of Mus musculus with 53 samples.

Results

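The genes described here are 10 genes of the senescence and p53 checkpoint in mouse intestine, namely Cdkn2a, Cdkn2b, Cdkn1a, Trp53, Mdm2, Ccng1, Ccnd1, Bbc3, Glb1 and Lmnb1. They were chosen by symbol from the 55421 gene rows of the count table, and each symbol had 1 row. Whole tissue RNA of adult mice was sequenced in 53 libraries of 11 groups, and every mouse carried the VilCreER transgene, which is active in intestinal epithelial cells after tamoxifen. In the proximal colon, BA mice (BrafV600E/+ Alk5fl/fl) gave endpoint tumours (n = 4) and tissue 30 days after induction without (n = 5) and with (n = 5) ampicillin (1 g/L), neomycin trisulphate (1 g/L), vancomycin (500 mg/L) and metronidazole (1 g/L). A mice (Alk5fl/fl) gave day 30 tissue without (n = 4) and with (n = 4) sulindac at 0.4 g/L, and WT mice, which carry the transgene alone, gave day 30 tissue (n = 4) and tissue with no stated day (n = 3). In the small intestine, APCfl/fl mice (n = 10) were compared with WT mice (n = 6) at day 4, and tumours of Apcfl/+ mice (n = 5) with WT tissue with no stated day (n = 3). These last 2 groups were on inbred C57BL6/J and all others on a mixed C57BL/6J background. BA and A mice thus share the loss of Alk5, a receptor for TGFβ, and differ by the Braf allele. Recombination is limited to the epithelium, whereas the libraries hold all cells of the tissue.

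Cells that receive an oncogenic signal can stop dividing for good, a state called senescence. The Cdkn2a locus encodes p16Ink4a, which inhibits the cyclin D kinases CDK4 and CDK6, and p19Arf, which restrains MDM2 and so stabilises p53, while the neighbouring Cdkn2b encodes a further CDK4/6 inhibitor, p15Ink4b. The transcription factor p53 (Trp53) in turn induces Cdkn1a, the CDK inhibitor p21, and also Ccng1, the pro-apoptotic Bbc3 (PUMA) and its own ubiquitin ligase Mdm2. Ccnd1 encodes cyclin D1, Glb1 the lysosomal β-galactosidase behind the senescence stain, and Lmnb1 lamin B1 of the nuclear envelope, which is lost in many senescent cells.

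Libraries held 516985 to 32824795 reads on genes, and 3 reads in a library of median depth correspond to between 0.138 and 0.192 CPM (reads scaled to a common library size) in the 11 groups, a floor that covers counting error only. Some libraries stood apart from their groups. One APCfl/fl library, replicate 1, had the lowest total of all, and APCfl/fl replicate 5 held genes at levels not seen in the other day 4 libraries. Gm13394 was over 10 CPM in all 18 day 30 libraries of BA and A mice and in 0 of the 4 day 30 WT libraries, so that this difference cannot be told apart from genotype in comparisons with day 30 WT. It was over 10 CPM in 3 of 4 BA tumours and 0 of 3 WT proximal colons. In the small intestine it was over 10 CPM in 0 of 5 Apcfl/+ tumours and 3 of 3 WT libraries, where it cannot be told apart from genotype either. Reads of the Y-linked gene Ddx3y exceeded 10 CPM in all day 30 libraries. They did so in 3 of 4 BA tumours and 0 of 3 WT proximal colons. In the small intestine this held for 1 of 5 Apcfl/+ tumours and 3 of 3 WT libraries. Some libraries held both Ddx3y and Xist, an RNA of female cells. APCfl/fl replicate 5 had Xist at 575 CPM and Ddx3y at 7.53. BA tumour 2 had Xist at 38.7 CPM, Ddx3y at 28.7 and Gm13394 at 3.83. Whether these 2 libraries hold tissue of more than 1 mouse was not tested. Tissue labels were checked by markers, with the summed level of 6 colon markers at 12200 to 28780 CPM in day 30 and WT proximal colon and 74.4 to 601 CPM in the small intestine and its tumours. In BA tumours the same sum was 1192 to 5225 CPM, lowest in tumour 2. The summed level of 6 small intestinal markers was 11570 to 21810 CPM in WT small intestine and 4494 to 6987 in Apcfl/+ tumours 1, 3, 4 and 5, but 30.78 in tumour 2, under the 686 to 1002 CPM of WT proximal colon. Results on Apcfl/+ tumours are therefore given with and without tumour 2. The same 6 markers summed to 205 to 257 CPM in BA tumours 1, 3 and 4, but to 1245 in BA tumour 2, above WT proximal colon.

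On GRCm38, Cdkn2a (ENSMUSG00000044303) lies on chromosome 4 at 89274471-89294653 and Cdkn2b (ENSMUSG00000073802) beside it at 89306299-89311039, both on the minus strand. The Cdkn2a row pools the reads of 2 annotated transcripts, Cdkn2a-201 of 852 exon bases and Cdkn2a-202 of 895, which share 575 bases in the same exons and differ by their start. The shorter begins at base 89282192 and is the p16Ink4a form, and the longer begins at 89294653 and is the p19Arf form, so the counts do not tell the 2 products apart. Their promoters are shown because a Cdkn2a count can come from either start. The sequences are from RefSeq (GRCm38.p6), with 250 bases before and 50 after the start, and capitals mark the GC box GGGCGG or its reverse complement, searched on both strands:

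Cdkn2a, downstream start, chr4:89282143-89282442, minus strand: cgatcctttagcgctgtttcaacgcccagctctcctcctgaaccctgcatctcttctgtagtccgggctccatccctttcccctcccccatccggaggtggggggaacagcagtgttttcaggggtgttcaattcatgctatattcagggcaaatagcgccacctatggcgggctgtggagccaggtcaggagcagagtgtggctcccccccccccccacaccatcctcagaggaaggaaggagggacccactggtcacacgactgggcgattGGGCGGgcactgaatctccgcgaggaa

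Cdkn2a, upstream start, chr4:89294570-89294869, minus strand: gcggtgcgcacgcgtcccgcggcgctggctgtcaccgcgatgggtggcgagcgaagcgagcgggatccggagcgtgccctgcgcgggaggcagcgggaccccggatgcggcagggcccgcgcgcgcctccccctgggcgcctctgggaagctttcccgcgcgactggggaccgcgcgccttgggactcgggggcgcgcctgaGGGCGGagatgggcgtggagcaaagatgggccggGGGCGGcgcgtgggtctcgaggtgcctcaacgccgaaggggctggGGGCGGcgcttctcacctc

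The upstream promoter held 45 CpG dinucleotides and 3 GC boxes and the downstream one 12 CpG and 1 GC box. Among all 32851 promoters of the table the median was 7 CpG (quartiles 3 and 20) and 35.7% held a GC box. The promoter table matched 8 of the 10 genes, without Ccnd1 and Lmnb1. The next 2 promoters are shown because Cdkn1a and Mdm2 rose together below. Capitals mark the 10-base unit of the p53 response element, searched by its consensus on both strands:

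Cdkn1a, upstream start, chr17:29090729-29091028, plus strand: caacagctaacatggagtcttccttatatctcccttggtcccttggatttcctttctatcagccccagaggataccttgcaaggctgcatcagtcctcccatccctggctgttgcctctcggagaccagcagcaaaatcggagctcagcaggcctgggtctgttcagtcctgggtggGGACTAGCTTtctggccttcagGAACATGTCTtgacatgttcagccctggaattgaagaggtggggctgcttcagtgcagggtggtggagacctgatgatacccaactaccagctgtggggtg

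Mdm2, chr10:117710709-117711008, minus strand: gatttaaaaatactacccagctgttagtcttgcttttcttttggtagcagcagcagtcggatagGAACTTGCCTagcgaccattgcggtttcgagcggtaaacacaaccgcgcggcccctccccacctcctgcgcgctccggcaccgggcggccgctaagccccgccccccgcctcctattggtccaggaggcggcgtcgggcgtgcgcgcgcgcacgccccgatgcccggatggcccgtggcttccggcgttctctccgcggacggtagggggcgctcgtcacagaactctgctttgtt

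The Cdkn1a window shown held 2 such units and those of Mdm2, Trp53 and Ccng1 held 1 each. The second Cdkn1a window, chr17:29093519-29093818, held 0, as did the windows of Cdkn2a, Cdkn2b, Bbc3 and Glb1, and 8.36% of all promoters of this length held at least 1. These matches describe letters and are no evidence of binding. Of the 10 genes, Ccnd1 shares 23.4% of its exon bases with LTO1 on the opposite strand, 9.3% of the 36-base words of Cdkn1a recur in other genes, mostly in AC167363.2 on its opposite strand, and 8.29% of those of Trp53, mostly in Trp53-ps. The strand setting of the counting is not given in the sources used here, so reads of Ccnd1 and LTO1, and of Cdkn1a and AC167363.2 where they overlap, cannot be told apart.

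Cdkn2a was at most 0.83 normalised CPM in normal and day 30 tissue and rose in both kinds of tumour, each against its own WT. It was at 2.89, 9.58, 6.12 and 7.62 normalised CPM in BA tumours 1 to 4 (64, 89, 108 and 188 reads) and at 0.0646, 0.0588 and 0.189 in WT proximal colon (2, 1 and 4 reads). All 4 tumours lay far above all 3 WT libraries. The highest, tumour 2, also had the highest small intestinal marker level of the 4. Tumour 2 held both Xist and Ddx3y reads, as given above. On the log2 scale the fold change was 5.90 (standard error 0.66, adjusted p = 0.00186 by the edgeR quasi-likelihood test with Benjamini-Hochberg adjustment over all genes tested). Cdkn2a passed the low-count filter only through its reads in tumours, so this test is given no weight beyond the reads listed. Because WT reads were so few, the fold is better given by summed reads, 449 of 74246730 in tumours and 7 of 69045235 in WT, a ratio of 59.7 with an exact 95% interval for counting error of 28.7 to 149. With a term for Y-linked reads, added after the data were seen, the log2 fold change was 4.63 (adjusted p = 0.0178). Cdkn2a was the single gene of the 10 called higher in BA tumours, in a comparison that called 7.46% of genes higher and 5.71% lower.

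In Apcfl/+ tumours of the small intestine Cdkn2a was at 0.658, 5.94, 0.267, 0.973 and 2.56 normalised CPM in tumours 1 to 5 (14, 128, 6, 22 and 75 reads). WT small intestine had 2, 1 and 0 reads. The groups did not overlap, although tumour 3 lay close to WT. Tumours 1 and 3 were also within the 0 to 0.83 normalised CPM of day 4 WT small intestine, a separate set of libraries. The log2 fold change was 5.23 (standard error 1.39, adjusted p = 0.0105), again for a gene that passed the low-count filter only through the tumours. The ratio of summed reads was 42.0 with an exact 95% interval for counting error of 14.2 to 205. This interval leaves out the spread between tumours. Tumour 2 gave 128 of the 245 tumour reads, and the ratio was not computed without it. Tumour 2, which had almost no small intestinal marker reads, held the most Cdkn2a, and without it the log2 fold change was 4.38 (adjusted p = 0.0062). With a term for Y-linked reads the call was lost (log2 fold change 3.59, adjusted p = 0.162), with 1 of 5 tumours and every WT library over 10 CPM of Ddx3y.

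Day 30 tissue held 0 to 5 Cdkn2a reads per library in all 5 groups. BA mice had 2, 2, 2, 3 and 2 reads, antibiotic-treated BA mice 5, 0, 3, 2 and 3, and day 30 WT mice 2, 1, 0 and 2. The gene was left out of the tests at day 30 by the low-count filter, and no fold is given because all groups were near the floor of 3 reads. The highest day 30 level, 0.338 normalised CPM, lay under the lowest BA tumour at 2.89, so a rise to the tumour level was not seen, while a small rise near the floor was not detectable at this depth. The model of the BA effect at endpoint minus the BA effect at day 30 (an interaction over 4 groups) kept Cdkn2a only through its reads in tumours, with day 30 groups at the floor, and its fitted difference is therefore given no weight.

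At day 4 after loss of Apc, 9 of 10 APCfl/fl libraries had 0 to 13 Cdkn2a reads, at most 0.382 normalised CPM, and WT small intestine had 0 to 17 reads, at most 0.83 normalised CPM. APCfl/fl replicate 5 stood alone with 1044 reads, or 28.2 normalised CPM, the highest Cdkn2a level of all 53 libraries. This library held both Xist and Ddx3y reads, as given above. The low-count filter removed Cdkn2a from this comparison too.

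**Figure D1:**
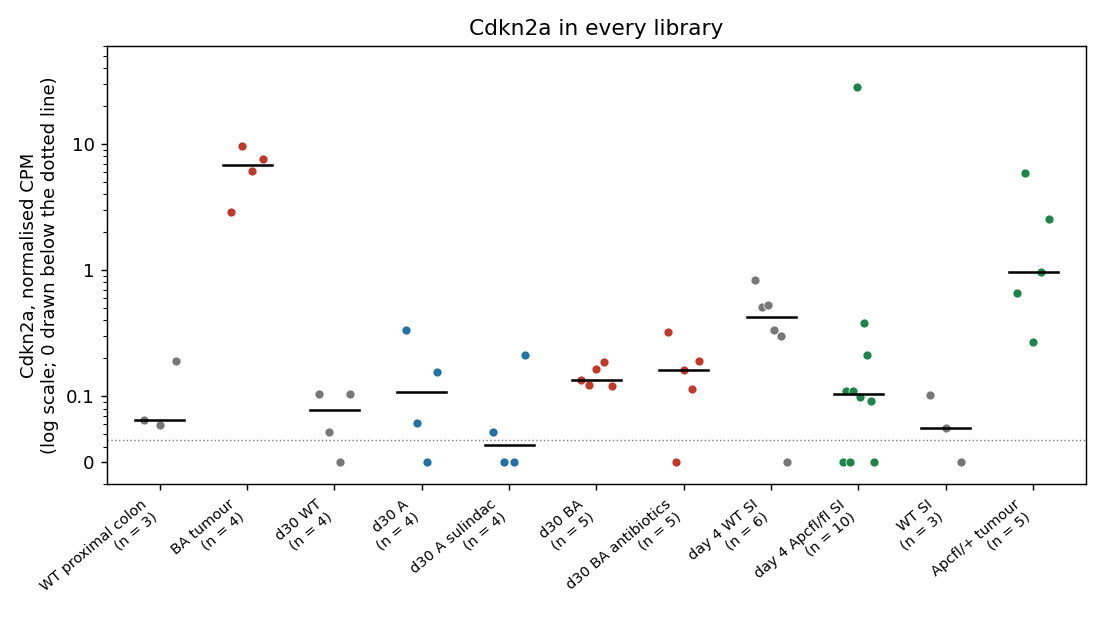
Normalised CPM of Cdkn2a (log axis, with 0 drawn below the dotted line) in each of the 53 libraries by group, each point a library and each line the group median. The 4 BA tumours lie between 2.89 and 9.58, the 5 Apcfl/+ tumours between 0.267 and 5.94, and 1 day 4 APCfl/fl library at 28.2.

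Neither tumour type was free of other cells, and markers of those cells also differed from WT, in directions that varied by cell type. Of 10 fibroblast markers, 5 rose in BA tumours and 8 in Apcfl/+ tumours. Their summed level was 5907 to 7583 CPM in BA tumours against 1954 to 3196 in WT proximal colon, and 3241 to 4929 CPM in Apcfl/+ tumours against 1457 to 1854 in WT small intestine. Of 9 neutrophil markers tested, 8 rose in both tumour types. Immune markers moved in opposite directions, with 4 of 10 higher in BA tumours and 7 of 10 lower in Apcfl/+ tumours, and 3 and 4 of 8 smooth muscle markers fell. Without Apcfl/+ tumour 2, 9 fibroblast, 8 neutrophil, 7 immune and 6 smooth muscle markers were called in these directions. That fit called 7279 of 20351 genes higher and 7190 lower. Their part in the Cdkn2a result was not tested, and in whole tissue a change in the share of a cell type and a change in RNA per cell cannot be told apart.

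The other 9 genes did not pass the test in BA tumours. Ccnd1 was nearest, at 109, 59.3, 143 and 174 normalised CPM in tumours 1 to 4 and at 47.6, 44.7 and 68.7 in WT proximal colon. Tumour 2 lay within the WT range and the other 3 above it. The log2 fold change was 1.16 (standard error 0.35, adjusted p = 0.0625), and it passed the threshold without tumour 2 (1.37, adjusted p = 0.00773). Mdm2 was at 55.7 to 60.7 normalised CPM in the tumours and 41.8 to 49.2 in WT, and Ccng1, a p53 target that encodes cyclin G1, at 162 to 262 and 128 to 154. For both genes the groups did not overlap, yet the log2 fold changes of 0.35 and 0.56 missed the threshold (adjusted p = 0.194 and 0.154). How many of all genes lacked overlap was not computed. Glb1 and Lmnb1 were at log2 fold changes of 0.09 and -0.09. The median of the 10 genes was 0.30 and that of all 19188 genes 0.03.

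**Figure D2:**
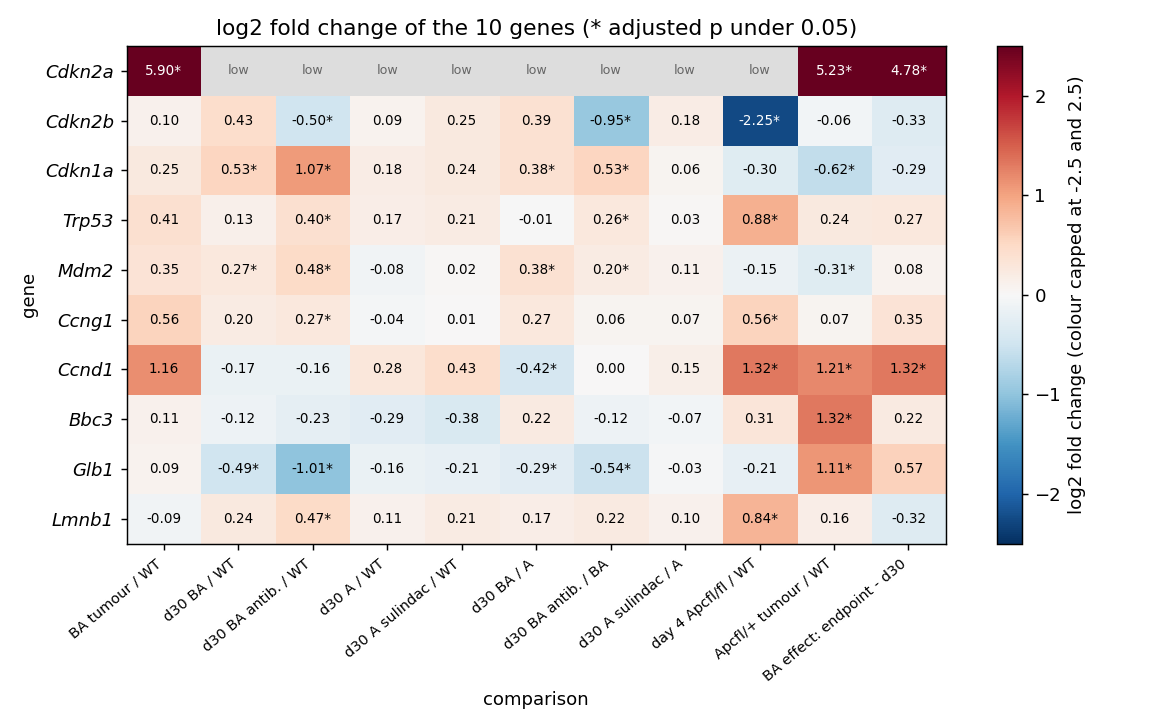
log2 fold change of the 10 genes (rows) in each comparison (columns), with an asterisk where the adjusted p was under 0.05 and grey where the gene had too few reads to be tested. The last column is the BA effect at endpoint minus that at day 30, where the value of Cdkn2a rests on day 30 groups near 0 reads. Cdkn2a is at 5.90 and 5.23 in the tumour columns, where it passed the low-count filter only through the tumours.

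Day 30 BA tissue showed modest rises of Cdkn1a and Mdm2 and a fall of Glb1. Cdkn1a was at 394, 350, 426, 307 and 414 normalised CPM in BA mice and at 291, 279, 202 and 268 in day 30 WT mice. All 5 BA values exceeded all 4 WT values, with a log2 fold change at 0.53 (standard error 0.12, adjusted p = 0.00328). Mdm2 was at 64.5, 69.3, 60.5, 66.6 and 66.4 against 50.4, 52.4, 54.2 and 59.0 normalised CPM, again without overlap (log2 fold change 0.27, standard error 0.07, adjusted p = 0.00592). Glb1 moved the other way, at 52.99, 45.9, 51.6, 50.7 and 46.9 in BA mice and 66.8, 71.2, 71.4 and 66.9 in WT. Its log2 fold change was -0.49 (standard error 0.07, adjusted p = 0.00012). These 3 calls stand against 25.8% of genes called higher and 29.3% called lower in the same comparison.

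Trp53 itself did not pass at day 30 (49.9 to 59.5 normalised CPM in BA mice and 44.7 to 56.4 in WT, log2 fold change 0.13, adjusted p = 0.192), nor did Bbc3 (-0.12, adjusted p = 0.397). Cdkn2b, Ccng1, Lmnb1 and Ccnd1 lay near the threshold, with log2 fold changes of 0.43, 0.20, 0.24 and -0.17 and adjusted p between 0.0545 and 0.0901. Each of these 4 passed in at least 1 fit that left out a library, Cdkn2b without BA replicate 3 or WT replicate 1 (0.50 and 0.59), Ccng1 without BA replicate 3 or WT replicate 2 (0.23 and 0.24), Lmnb1 without BA replicate 1 or WT replicate 1 or 2 (0.27, 0.30 and 0.29) and Ccnd1 without WT replicate 4 (-0.24). Trp53 passed without WT replicate 2 (0.21). Scaling by the library total moved the median of all genes to -0.18, and Mdm2 then stood at 0.11 and lost its call (adjusted p = 0.17).

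Markers of several cell types differed in the same libraries. All 10 epithelial markers rose in day 30 BA tissue, with a summed level of 26720 to 30980 CPM against 13540 to 16020 in WT, and 6 of 8 smooth muscle markers fell, from 5100 to 5917 CPM in WT to 998 to 4136. Of the fibroblast markers 7 of 10 fell, and of the colon markers 5 of 6. The neutrophil marker Ly6g went from 0.228 to 417 normalised CPM, while of the other 2 neutrophil markers tested 1 fell and 1 did not pass. Their part in the changes of Cdkn1a, Mdm2 and Glb1 was not tested.

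BA mice were next set against A mice, which lack Alk5 without the Braf allele. Here Cdkn1a (BA against A, log2 fold change 0.38, standard error 0.12, adjusted p = 0.0222) and Mdm2 (0.38, standard error 0.08, adjusted p = 0.00263) were again higher in BA mice. A mice held Cdkn1a at 347, 293, 270 and 264 and Mdm2 at 49.8, 52.0, 51.8 and 49.96 normalised CPM. The groups overlapped for Cdkn1a but not for Mdm2. Glb1 was lower in BA mice (-0.29, standard error 0.09, adjusted p = 0.0191), with A mice at 64.2, 56.3, 58.7 and 66.3. Ccnd1 was also lower (-0.42, standard error 0.12, adjusted p = 0.0176), at 45.2, 44.6, 48.0, 45.5 and 42.7 in BA mice and 54.9, 53.9, 78.3 and 56.6 in A mice. Ccnd1 did not overlap between the groups, and A replicate 3 was high. This comparison shares its BA mice with the one above and called 21.7% of genes higher and 23.6% lower. All of its libraries were over 10 CPM of Gm13394.

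The calls of Cdkn1a and Glb1 in BA against A rested on single libraries. Cdkn1a missed the threshold without BA replicate 3 or 5 or A replicate 4 (adjusted p = 0.053 to 0.0554), and Glb1 without BA replicate 2, 4 or 5 or A replicate 4 (adjusted p = 0.0501 to 0.0805). Under library total scaling, which put the median of all genes at -0.28, Cdkn1a was at 0.15 and Mdm2 at 0.15, both uncalled. In turn Cdkn2b passed without A replicate 1 (0.63) and Ccng1 without A replicate 3 (0.39). All 10 epithelial markers were higher in BA than in A mice here as well, at 13220 to 22740 CPM in A mice.

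Loss of Alk5 alone gave no call among the 10 genes. The edgeR test called none of the 9 genes tested in A against day 30 WT, where 0 had an unadjusted p under 0.05 and DESeq2 called 0. The comparison called 0.096% of all genes higher and 0.0452% lower. The log2 fold changes ran from -0.29 for Bbc3 to 0.28 for Ccnd1. Glb1 was below WT in every A mouse without passing the test (-0.16, adjusted p = 0.552). The standard errors ran from 0.09 for Mdm2 to 0.23 for Cdkn2b, so that a miss of the threshold does not show equal levels.

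Earlier treatment with sulindac, an inhibitor of cyclooxygenases, withdrawn before day 30, also gave no call. Against day 30 WT the edgeR test called none of the 9 genes in sulindac-treated A mice, with 1 at an unadjusted p under 0.05 and 0 by DESeq2, beside 0.0507% of all genes higher and 0.0% lower. Against untreated A mice it called none of the 9, with 0 at an unadjusted p under 0.05 and 0 by DESeq2, and both shares over all genes were 0.0%. Log2 fold changes against untreated A ran from -0.07 (Bbc3) to 0.18 (Cdkn2b). Treated mouse 2 differed from the others in 2 genes, with Ccnd1 at 115 normalised CPM, where the other 3 were at 44.9 to 56.7, and Cdkn1a at 176, where the other 3 were at 321 to 362.

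Antibiotic-treated BA mice also had higher Cdkn1a and Mdm2 and lower Glb1 than WT, and the direct comparison with untreated BA mice follows. Against day 30 WT, Cdkn1a stood at 582, 647, 465, 491 and 541 normalised CPM (log2 fold change 1.07, standard error 0.13, adjusted p = 0.000104) and Mdm2 at 81.8, 69.5, 66.7, 79.3 and 78.7 (0.48, standard error 0.07, adjusted p = 0.000489). Trp53 rose as well, at 63.7, 66.0, 59.8, 64.4 and 69.9 against 47.7, 56.4, 44.7 and 47.8 in WT (0.40, standard error 0.08, adjusted p = 0.00221). Glb1 fell further, to 38.6, 31.5, 37.7, 31.96 and 30.45 (-1.01, standard error 0.09, adjusted p = 1.79e-05). None of these 4 genes overlapped with WT, though the share of all genes without overlap was not computed. Cdkn2b, encoding p15Ink4b, fell to 25.6, 27.4, 20.9, 23.3 and 22.7 from 45.02, 29.4, 31.5 and 30.42 in WT (-0.50, standard error 0.13, adjusted p = 0.01225), a call that was lost with all 5 day 30 groups in 1 fit (-0.52, adjusted p = 0.0823).

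Ccng1 and Lmnb1 passed with less room in the same comparison. The log2 fold change of Ccng1 was 0.27 (adjusted p = 0.0157), and its call was lost without antibiotic replicate 1, 4 or 5 or WT replicate 3 (adjusted p = 0.0699 to 0.103). Lmnb1 was at 0.47 (adjusted p = 0.00938) and missed the threshold without WT replicate 3 (adjusted p = 0.051). In all, 5 genes rose and 2 fell, in a comparison that called 21.8% of genes higher and 17.8% lower. Epithelial markers again all rose, at 22960 to 34830 CPM, and 7 of 10 proliferation markers rose. One antibiotic library had a summed fibroblast level of 8576 CPM, and the group median was 1920. Their part in these results was not tested.

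Set directly against untreated BA mice, antibiotics were tied to higher Cdkn1a (log2 fold change 0.53, standard error 0.10, adjusted p = 0.00769), Trp53 (0.26, standard error 0.06, adjusted p = 0.0148) and Mdm2 (0.20, standard error 0.06, adjusted p = 0.0395). Cdkn2b was lower by nearly 1 log2 unit (-0.95, standard error 0.15, adjusted p = 0.00315), with untreated BA mice at 39.6, 49.1, 35.9, 66.4 and 39.95 normalised CPM and no overlap. Glb1 was lower as well (-0.54, standard error 0.09, adjusted p = 0.00336). Of all genes, 4.53% were called higher and 8.5% lower, fewer than in the comparisons with WT. None of the 10 epithelial markers passed here by edgeR, with 3 at an unadjusted p under 0.05 and 0 called by DESeq2, and 4 of 10 proliferation markers rose.

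The Mdm2 call under antibiotics rested on single libraries, since it was lost without BA replicate 1, 3, 4 or 5 or antibiotic replicate 1, 4 or 5 (adjusted p = 0.069 to 0.0947). With all 5 day 30 groups in 1 fit, Cdkn1a (0.52, adjusted p = 0.0581), Trp53 (0.25, adjusted p = 0.233) and Mdm2 (0.20, adjusted p = 0.162) kept their size and lost their calls, and Cdkn2b and Glb1 kept theirs.

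**Figure D3:**
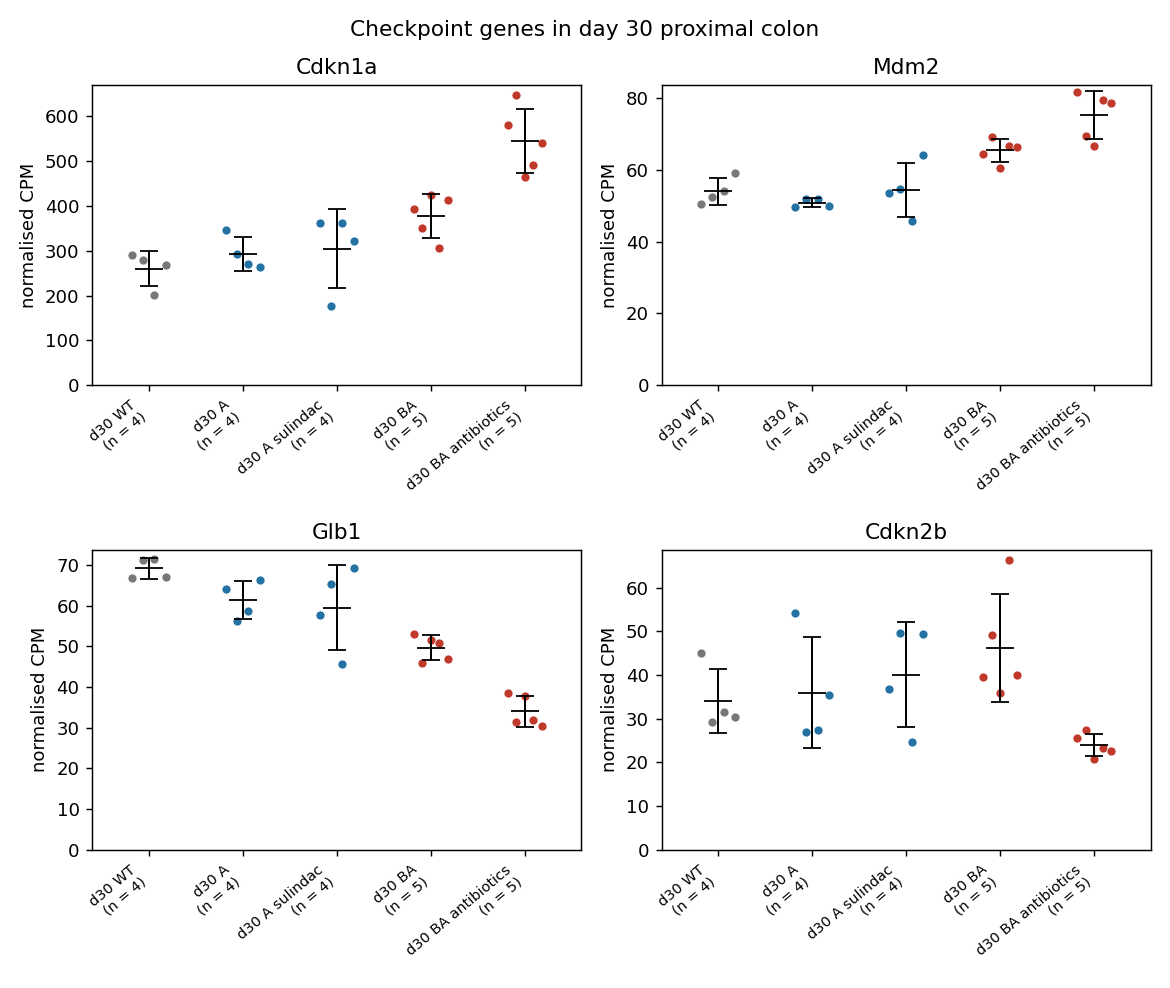
Normalised CPM of Cdkn1a, Mdm2, Glb1 and Cdkn2b in the 5 day 30 groups of proximal colon, each point a mouse, with the mean and SD in black. Cdkn1a reaches 465 to 647 in antibiotic-treated BA mice and Glb1 30.45 to 38.6, whereas the A groups overlap with WT for Cdkn1a.

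The early and late BA effects were compared with the interaction model, which called 9.87% of genes higher and 6.46% lower. Ccnd1 differed, with a BA effect at endpoint above that at day 30 by 1.32 on the log2 scale (standard error 0.33, adjusted p = 0.0125). Its fold change was 1.16 at endpoint and -0.17 at day 30. The call was lost without WT proximal colon replicate 1 (1.18, adjusted p = 0.0553) and with a term for Y-linked reads (1.18, adjusted p = 0.0744). Glb1 differed by 0.57 without passing (adjusted p = 0.0707), and it passed without BA tumour 2 (0.70, adjusted p = 0.0164) or WT proximal colon replicate 1 (0.76, adjusted p = 0.0174). For Cdkn1a the difference was -0.29 (standard error 0.32, adjusted p = 0.594) and for Mdm2 0.08 (standard error 0.13, adjusted p = 0.725), so their day 30 changes were not shown to be absent at endpoint.

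The baselines of these 2 stages were far apart for some of the genes. Cdkn1a was at 260 ± 39.8 normalised CPM (SD, n = 4) in day 30 WT colon and at 39.4 ± 10.3 (SD, n = 3) in WT colon with no stated day, a ratio of 6.61. In the small intestine the day 4 WT group was at 235 ± 38.25 (SD, n = 6) and the other WT group at 40.9 ± 6.085 (SD, n = 3), a ratio of 5.74. Trp53 showed ratios of 2.69 and 2.95 in the same pairs, while Ccnd1 (0.939 and 1.03) and Mdm2 (1.22 and 0.996) were nearly level. For Cdkn2a the ratios were 0.628 and 7.91, from at most 17 reads per library. Stage and any difference in how these sets of libraries were made cannot be told apart, so levels of Cdkn1a and Trp53 are not compared between them.

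Acute loss of Apc in the small intestine brought the largest fall of any of the 10 genes. Cdkn2b was at 7.44 to 28.1 normalised CPM (median 13.6) in the 10 APCfl/fl mice at day 4 and at 59.0 to 96.3 (median 67.3) in the 6 WT mice. The groups were fully separate, and the log2 fold change was -2.25 (standard error 0.25, adjusted p = 2.89e-06). Trp53 rose without overlap, from 44.9 to 85.5 (median 62.75) in WT to 92.3 to 137 (median 115) normalised CPM (log2 fold change 0.88, standard error 0.15, adjusted p = 0.00016). Ccnd1, which Wnt signalling is known to induce, rose from a median of 60.1 (36.8 to 120) to 152 (60.9 to 261), with a log2 fold change at 1.32 (standard error 0.30, adjusted p = 0.00137). Lmnb1 (0.84, standard error 0.18, adjusted p = 0.00104) and Ccng1 (0.56, standard error 0.21, adjusted p = 0.028) were higher too, with overlap in all 3 of these genes. Cdkn1a (-0.30, adjusted p = 0.158), Mdm2 (-0.15), Bbc3 (0.31) and Glb1 (-0.21) did not pass. Hence 4 genes rose and 1 fell, where 27.5% of all genes were called higher and 26.7% lower.

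Libraries of the day 4 groups fell on both sides of 10 CPM of Gm13394, and the result was recomputed within each side after the data were seen. Cdkn2b fell in both, by 2.16 on the log2 scale in the libraries over 10 CPM (6 APCfl/fl, 3 WT) and by 2.4 in those under it, and Trp53 rose in both (0.59 and 1.25). Ccnd1, Lmnb1 and Ccng1 were called in the libraries under 10 CPM (1.57, 1.07 and 0.47) and not in those over it (1.11, 0.66 and 0.54, adjusted p = 0.0607, 0.0797 and 0.209), where WT replicates 5 and 6 held Ccnd1 at 120 and 87.6. In the libraries under 10 CPM, Cdkn1a (-0.68, adjusted p = 0.00112) and Mdm2 (-0.48, adjusted p = 0.000826) also fell. In those over it these 2 genes were at -0.01 and 0.07. Bbc3 (adjusted p = 0.0344) and Glb1 (adjusted p = 0.0243) were each called on 1 side alone. Over all fits of this comparison Bbc3 ranged from 0.04 to 0.57. Glb1 ranged from -0.48 to 0.15, the last value in the libraries under 10 CPM. Without APCfl/fl replicate 5 the same 5 genes were called.

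All 10 proliferation markers rose in APCfl/fl tissue, all 5 small intestinal enterocyte markers tested fell, and 7 of 10 immune markers fell, from a summed 272 to 462 CPM in WT to 122 to 161. The summed level of the proliferation markers was 1137 to 2000 CPM against 555 to 1007 in WT. Their part in the changes of the 10 genes was not tested.

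In established Apcfl/+ tumours Glb1, Bbc3 and Ccnd1 rose and Mdm2 and Cdkn1a fell. Glb1 was at 68.1, 61.8, 54.6, 75.4 and 69.6 normalised CPM in the tumours and 34.4, 32.6 and 31.6 in WT small intestine, and the log2 fold change was 1.11 (standard error 0.11, adjusted p = 0.000101). Bbc3 rose from 2.73, 3.85 and 4.15 to 7.43, 12.7, 5.53, 7.43 and 8.66 (1.32, standard error 0.28, adjusted p = 0.00373). Ccnd1 rose from 42.5, 87.0 and 65.9 to 145, 147, 133, 144 and 133 (1.21, standard error 0.20, adjusted p = 0.00111). None of these 3 genes overlapped with WT, and the share of all genes without overlap was not computed. Mdm2 fell from 74.2, 65.3 and 76.1 to 50.8, 56.5, 53.4, 51.7 and 56.9 (-0.31, standard error 0.08, adjusted p = 0.00906), also without overlap.

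Cdkn1a fell from 34.1, 42.4 and 46.0 to 17.1, 36.5, 23.6, 20.7 and 26.4 normalised CPM (-0.62, standard error 0.22, adjusted p = 0.0391). Tumour 2 lay within the WT range, and the call was lost without WT replicate 2 or 3 or without tumour 1, 3, 4 or 5 (adjusted p = 0.0569 to 0.138). Cdkn2b did not pass in these tumours, at 28.7 to 52.2 against 40.5 to 52.9 in WT (-0.06, adjusted p = 0.812), and Trp53 and Lmnb1 were at 0.24 and 0.16. With Cdkn2a, 4 of the 10 genes rose and 2 fell, so that 6 of 10 were called in either direction, where 61.5% of all genes were, 6461 higher and 6189 lower. Mdm2 missed the threshold without WT replicate 3 (adjusted p = 0.0511), and with a term for Y-linked reads Mdm2 (-0.39, adjusted p = 0.0653) and Bbc3 (1.16, adjusted p = 0.067) missed it. Without tumour 2 the same 6 genes were called, with log2 fold changes of 4.38 for Cdkn2a, 1.13 for Bbc3, 1.20 for Ccnd1, 1.13 for Glb1, -0.33 for Mdm2 and -0.79 for Cdkn1a (adjusted p = 0.00217 for the last). The fit without tumour 2 called 7279 of 20351 genes higher and 7190 lower, more than with all 5 tumours. The difference between acute loss and tumours was not tested. All 5 tumours were under 10 CPM of Gm13394 and all 3 WT libraries over it, so a difference tied to Gm13394 cannot be told apart from genotype here.

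**Figure D4:**
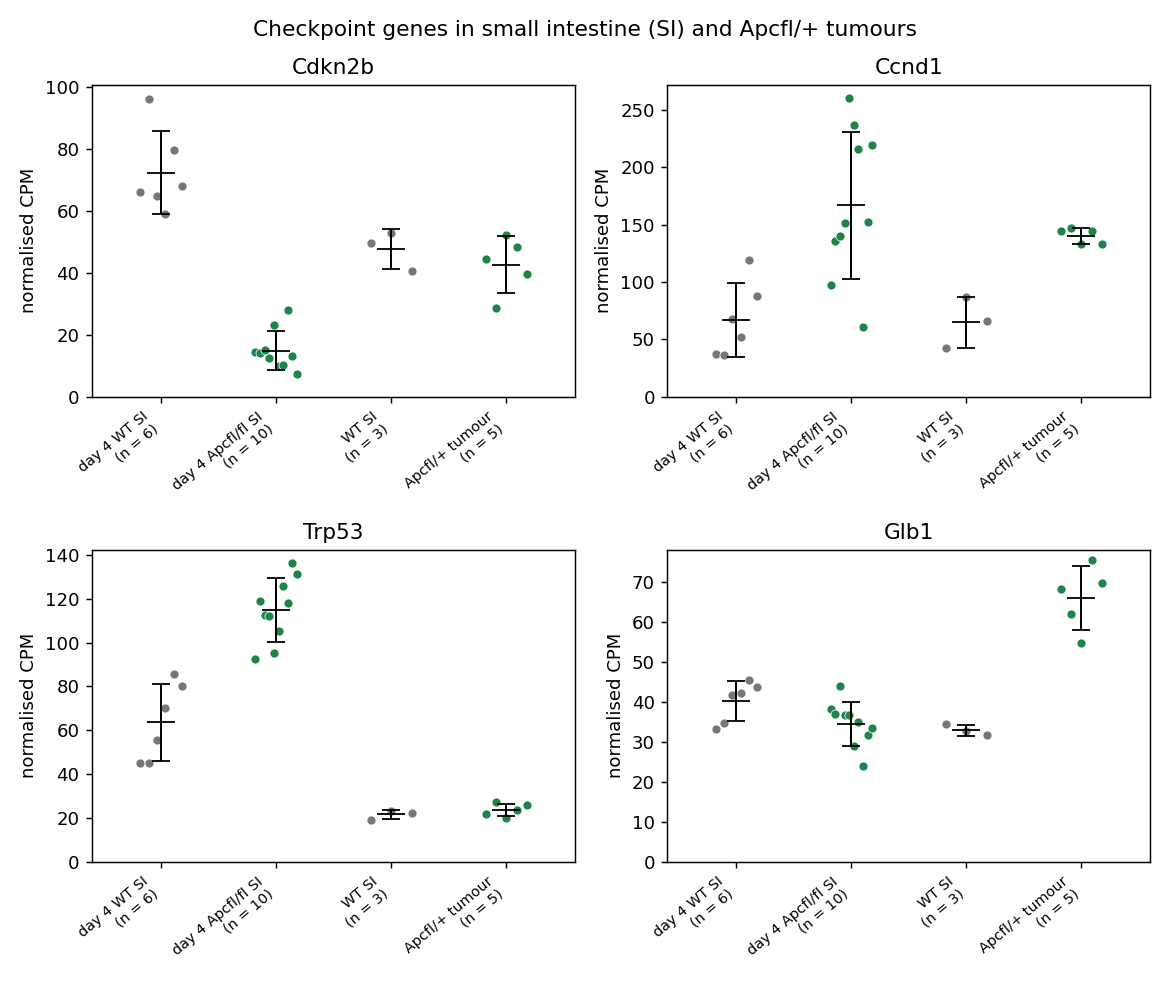
Normalised CPM of Cdkn2b, Ccnd1, Trp53 and Glb1 in the small intestine of day 4 WT and APCfl/fl mice and in WT small intestine and Apcfl/+ tumours, each point a library, with the mean and SD in black. Cdkn2b is at 7.44 to 28.1 in APCfl/fl mice and at 59.0 to 96.3 in their WT mice, and Glb1 is at 54.6 to 75.4 in Apcfl/+ tumours and 31.6 to 34.4 in their WT mice.

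A list of 20 further p53 targets, all tested in every comparison, is given beside the shares of all genes. In BA tumours 7.46% of all genes rose and 5.71% fell. There 5 of the list rose and none fell, with 7 at an unadjusted p under 0.05 and 7 called by DESeq2. These were Pmaip1, which encodes the pro-apoptotic NOXA (2.18, from 7.18 to 32.7 normalised CPM), the death receptor genes Tnfrsf10b (1.83) and Eda2r (1.79), Phlda3 (1.31) and Zmat3 (1.13). In day 30 BA tissue 6 rose and 4 fell, near the 25.8% and 29.3% of all genes. Tnfrsf10b (1.42), Pmaip1 (1.14) and Btg2 (1.07) were among those that rose, and Sesn1 (-1.02) and Fas (-0.95) among those that fell. Against A mice the count was again 6 and 4 (21.7% and 23.6% of all genes). With antibiotics against WT it was 5 and 2 (21.8% and 17.8%). In APCfl/fl tissue 8 rose, led by Gdf15 (1.94), and 4 fell, with Sesn1 lowest (-1.90), beside 27.5% and 26.7% of all genes. In Apcfl/+ tumours 8 rose, led by Phlda3 (2.21), and 3 fell, with Sesn1 lowest (-2.12), so 11 of 20 were called where 61.5% of all genes were. Without tumour 2 it was 8 and 4, in a fit that called 7279 of 20351 genes higher and 7190 lower. The interaction for the BA effect called 3 higher, Eda2r (2.27), Phlda3 (1.69) and Zmat3 (1.03), and 1 lower, Perp (-0.62). Of all genes it called 9.87% higher and 6.46% lower. The medians of the list were 0.32, 0.03, 0.31 and 0.47 in BA tumours, day 30 BA, APCfl/fl and Apcfl/+ tumours, where the medians over all genes were 0.03, -0.03, 0.0 and 0.03.

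In APCfl/fl tissue 27.5% of all genes rose and 26.7% fell. Of the kinases and cofactors that act on p53, 7 of 10 tested rose there and none fell, with 7 also called by DESeq2. They included the checkpoint kinase genes Chek1 (1.36), Chek2 (0.86), Atr (1.23) and Atm (1.23). In day 30 BA tissue 1 of 10 rose, the deubiquitinase gene Usp7 (0.28), and 4 fell, with the kinase gene Hipk2 lowest (-0.69). Of all genes 25.8% rose and 29.3% fell in that tissue. In Apcfl/+ tumours 3 of 11 rose and 2 fell, and Hipk2 (-1.90) and Mdm4 (-0.92) were the 2. Without tumour 2, 6 rose and 2 fell, in a fit that called 7279 of 20351 genes higher and 7190 lower. With all 5 tumours 61.5% of all genes were called in either direction. In BA tumours none of 10 was called, with 1 at an unadjusted p under 0.05 and 1 called by DESeq2. Of all genes 7.46% rose and 5.71% fell in BA tumours.

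Regulators of the Cdkn2a locus numbered 14 and all were tested. Ets1, whose product activates p16Ink4a transcription, rose in BA tumours (1.62, from 26.1 to 81.0 normalised CPM, adjusted p = 0.00468), as did Myc (1.62, adjusted p = 0.0125), and none fell. Of all genes 7.46% rose and 5.71% fell there. In day 30 BA tissue 7 rose and 2 fell, where 25.8% and 29.3% of all genes did. Bmi1, a Polycomb gene that represses Cdkn2a, was at 0.82 and Myc at 0.84, while Cbx7, a further Polycomb gene, was lowest at -0.67. In APCfl/fl tissue 6 rose, led by Myc (1.93), and 3 fell, with Ets1 lowest (-0.83), beside 27.5% and 26.7% of all genes. In Apcfl/+ tumours 8 rose, led by Id1 (1.78), and 2 fell, or 10 of 14 beside 61.5% of all genes. Without tumour 2 it was 9 and 3, beside 7279 of 20351 genes higher and 7190 lower. In the interaction, Ets1 (1.26), Cbx7 (1.03), Tbx2 (1.05) and Jdp2 (1.74) had a larger BA effect at endpoint, and Id1 (-1.41) and Ezh2 (-0.64) a smaller one.

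Among 15 other genes of the CDK and RB axis, Ccnd2, encoding cyclin D2 (1.79, from 74.3 to 261 normalised CPM), and Cdk6 (0.90) rose in BA tumours and none fell. Of all genes 7.46% rose and 5.71% fell there. Day 30 BA tissue had 5 that rose and 2 that fell, with Cdkn1c, encoding the CDK inhibitor p57, highest (0.91) and Cdk6 lowest (-0.43), or 7 of 15 where 25.8% of all genes were called higher and 29.3% lower. In APCfl/fl tissue 7 rose, among them Cdk6 (1.46), E2f1 (1.45) and Cdk4 (1.36), and 3 fell, with Rb1 lowest (-1.01). Of all genes 27.5% rose and 26.7% fell in that tissue. Apcfl/+ tumours had 6 that rose, with Cdkn1c highest (3.10), and 4 that fell, with Rb1 lowest (-1.23). This was 10 of 15 beside 61.5% of all genes. Without tumour 2 it was 7 and 4, beside 7279 of 20351 genes higher and 7190 lower. Cdk6 (1.33) and Ccnd2 (1.30) had a larger BA effect at endpoint than at day 30.

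Secreted factors typical of senescent cells had higher median fold changes in tumours than the 4 pathway lists above, though lower ones than the neutrophil markers (medians 4.23 in BA and 3.42 in Apcfl/+ tumours). Of the 20 genes, 15 rose in BA tumours and none fell, and 17 rose and 1 fell, Ccl5 (-3.36), in Apcfl/+ tumours. Of all genes 7.46% rose and 5.71% fell in BA tumours, and 61.5% were called in either direction in Apcfl/+ tumours. The medians were 3.31 and 2.91, and without Apcfl/+ tumour 2 the counts were again 17 and 1 with a median of 2.94. The fit without tumour 2 called 7279 of 20351 genes higher and 7190 lower. The chemokine gene Cxcl2 was highest in both (7.01 and 4.73), and Mmp10 (6.15), Il6 (5.77) and Mmp3 (5.24) followed in BA tumours. WT proximal colon held Cxcl2 at 0.0581 and Il6 at 0.0499 normalised CPM, under its floor of 0.139. BA tumours held them at 8.43 and 2.88, so the size of these 2 fold changes is uncertain. In day 30 BA tissue 7 of 16 tested rose and 3 fell (25.8% and 29.3% of all genes), with a median of 0.25 for the list. Plaur, the urokinase receptor gene, went from 10.3 to 64.3 normalised CPM (2.63) and Mmp10 from 0.234 to 4.01 (4.07), while Ccl20 fell (-3.60). With antibiotics 5 of 16 rose and 1 fell against WT (21.8% and 17.8% of all genes), Plaur again among those that rose (2.72). Against untreated BA mice 15 were tested, none rose and 2 fell (4.53% and 8.5% of all genes), Mmp13 (-2.19) and Mmp10 (-1.09). In APCfl/fl tissue 6 of 19 tested rose, led by Areg (2.24), and 4 fell, where 27.5% and 26.7% of all genes did. The interaction called 12 of 20 higher, Igfbp5 (4.27) and Timp1 (3.98) among them, and none lower, beside 9.87% and 6.46% of all genes. Many of these genes are also made by neutrophils and fibroblasts, whose markers rose in both tumour types as given above, and their part was not tested.

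**Figure D5:**
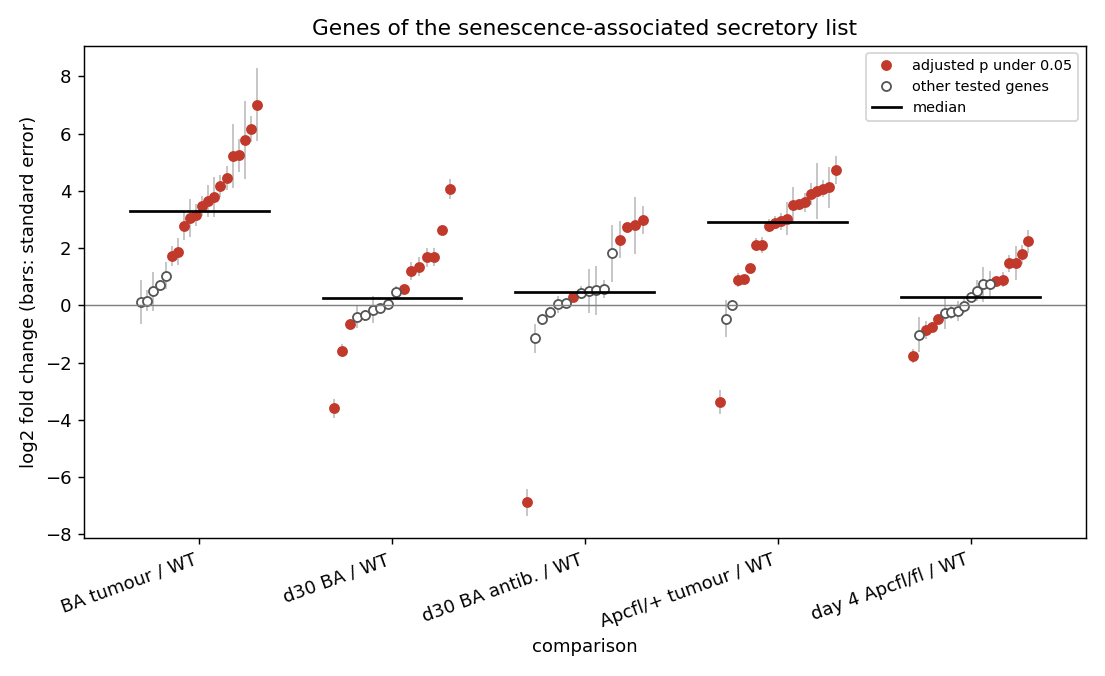
log2 fold change with its standard error of each tested gene of the 20 secreted factors in 5 comparisons with WT, sorted within each, filled where the adjusted p was under 0.05, with the median as a line. The medians are 3.31 in BA tumours and 2.91 in Apcfl/+ tumours, and 0.25 in day 30 BA tissue, where Ccl20 lies at -3.60.

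Per kilobase of exon, the level of the 10 genes covered a wide range. Cdkn2a went from 0.0452 normalised CPM per kilobase in WT small intestine to 5.59 in BA tumours. Bbc3 was the next lowest, from 1.68 to 4.79. Mdm2 went from 8.72 to 14.8, the smallest ratio between lowest and highest group of the 10. Cdkn2b ranged from 10.7 in APCfl/fl tissue to 52.1 in its WT group, and Ccng1 from 27.4 to 59.1.

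Across the 53 libraries, the genes most like Cdkn2a among 13830 expressed genes were Apoe (Pearson r = 0.79), Igfbp7 (0.79), Olfml3 (0.78), Pla1a (0.78) and Mmp12 (0.76), on log2 normalised CPM. Those most like Cdkn2b were Matk (0.78) and Fbxo9 (0.75), and those most like Ccnd1 were Wdr3 (0.92), Vars (0.90), Lsg1 (0.90) and Dhx33 (0.90). For Cdkn1a they were Rab7, Ywhab and Krt8-ps (0.96 each), in libraries that fall into 2 sets by its level as given above. These values run over libraries that differ in tissue, stage and depth, which can set such correlations, and no test was made of them.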

How the data were processed

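Total RNA of mouse intestine was sequenced as paired reads of 36 bases. The authors trimmed reads with Trim Galore 0.6.4 after FastQC 0.11.8, aligned them to GRCm38 with HISAT2 2.1.0 and counted them with featureCounts 1.6.4, and the deposited values are raw read counts per gene. The strand setting is not given in the sources used here. Groups came from the labels, and 0 columns belonged to other samples. From the counts, edgeR 4.0.16 quasi-likelihood tests (R 4.3.3, limma 3.58.1) were fitted over all genes left by filterByExpr, with TMM scaling, the 2 groups compared (4 for the interaction) and Benjamini-Hochberg adjustment at 0.05. The study itself used DESeq2, here an alternative (version 1.42.0). Levels are TMM-normalised CPM with 1 set of factors over 53 libraries. A floor is 3 reads. Overlap between groups was looked at for the 10 genes alone, so no share of all genes without overlap stands beside it. The scripts were tested on simulated data. The 10 genes and all lists were chosen with earlier results of these data known. All 10 genes are named in every comparison where tested, and from each list its highest and lowest gene with a few further called genes, some of them chosen after their values were seen. Alternatives were RLE and library total scaling, no low-count filter, DESeq2, a replicate block, 1 fit of all day 30 groups and leaving out libraries. Terms for Gm13394 or Y-linked reads, splits at 10 CPM of Gm13394 and leaving out APCfl/fl replicate 5 were chosen after seeing the data. No 2 libraries of the same group agreed within sampling noise, and pairs from different groups were not compared. The labels do not say that libraries of a group are from separate litters or cultures, so p-values measure the spread between these samples.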

Additional observations from a re-analysis of the deposited data

Results flagged for a closer look

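Each of the 90 sets of one gene in one group of 4 to 10 libraries was searched for a library far from the rest, and 6 had one, where chance gives about 1 in 20. Cdkn2a in APCfl/fl replicate 5 was at 28.25 normalised CPM and the next library at 0.382. Cdkn2b in day 30 WT replicate 1 was at 45.02 and the next at 31.5. Mdm2 in BA tumour 4 was at 60.72 and the next at 56.4. Ccnd1 in sulindac-treated A replicate 2 was at 115.4 and the next at 56.7. Ccnd1 in A replicate 3 was at 78.31 and the next at 56.6. Lmnb1 in Apcfl/+ tumour 2 was the lowest, at 39.36, and the next at 53.9.

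The BA effect differed between endpoint and day 30 for Ccnd1 by 1.32 on the log2 scale (adjusted p = 0.0125, edgeR interaction). For Cdkn2a the fitted difference was 4.78, but the day 30 groups held 0 to 3 reads and the gene was kept only through the tumours, so this value depends on the prior count and supports nothing.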

How the results depend on the processing

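The comparisons kept their direction for every gene called in the main fit under the alternatives run. The changes below are in counts and in genes that the main fit did not call, with the reported count in parentheses. Under no filter, genes called were 72 in A (25), 24 in A with sulindac against WT (9), 1 in sulindac against A (0) and calls among the 10 genes were 2 in BA tumours (1) and log2 fold changes that turned sign were Cdkn2b 0.01 in Apcfl/+ tumours, Trp53 0.05 in BA against A, Ccnd1 -0.0022 in antibiotics against BA, Mdm2 -0.01 in the interaction. Under DESeq2, genes called were 3798 in BA tumours (2527), 136 in A (25), 110 in A with sulindac against WT (9), 5 in sulindac against A (0) and calls among the 10 genes were 2 in BA tumours (1), 6 in day 30 BA (3) and log2 fold changes that turned sign were Trp53 0.02 in BA against A. Under the replicate block, genes called were 931 in BA tumours (2527), 2 in A with sulindac against WT (9), 8333 in Apcfl/+ tumours (12650), 1284 in antibiotics against BA (2172), 1 in sulindac against A (0), 1750 in the interaction (3371) and calls among the 10 genes were 2 in BA against A (4) and log2 fold changes that turned sign were Cdkn2b -0.08 in BA tumours, Bbc3 -0.15 in BA tumours, Trp53 0.01 in BA against A, Ccnd1 -4e-05 in antibiotics against BA, Bbc3 -0.02 in the interaction. Under a Y-linked term, genes called were 168 in BA tumours (2527), 7030 in Apcfl/+ tumours (12650) and calls among the 10 genes were 3 in Apcfl/+ tumours (6), 1 in the interaction (2) and log2 fold changes that turned sign were Cdkn2b -0.08 in BA tumours, Bbc3 -0.09 in BA tumours, Glb1 -0.16 in BA tumours, Lmnb1 0.00099 in BA tumours, Cdkn2b 0.01 in Apcfl/+ tumours, Ccng1 -0.13 in Apcfl/+ tumours. Under RLE scaling, calls among the 10 genes were 5 in day 30 BA (3) and log2 fold changes that turned sign were Trp53 0.02 in BA against A. Under library total scaling, calls among the 10 genes were 2 in BA against A (4) and log2 fold changes that turned sign were Trp53 -0.02 in day 30 BA, Ccng1 0.0012 in A, Mdm2 0.14 in APCfl/fl, Glb1 0.06 in APCfl/fl, Bbc3 -0.01 in BA against A, Lmnb1 -0.06 in BA against A, Trp53 -0.01 in sulindac against A. Under all day 30 groups in 1 fit, genes called were 29 in A with sulindac against WT (9), 1074 in antibiotics against BA (2172) and calls among the 10 genes were 2 in BA against A (4), 2 in antibiotics against BA (5) and log2 fold changes that turned sign were Ccnd1 -0.01 in antibiotics against BA. Under libraries over 10 CPM of Gm13394, genes called were 5490 in APCfl/fl (9504) and calls among the 10 genes were 3 in APCfl/fl (5) and log2 fold changes that turned sign were Mdm2 0.07 in APCfl/fl. Under libraries under 10 CPM of Gm13394, calls among the 10 genes were 8 in APCfl/fl (5) and log2 fold changes that turned sign were Glb1 0.15 in APCfl/fl. Leaving out 1 library gave counts of genes called of 696 to 3641 in BA tumours, 15 to 28 in A, 4 to 18 in A with sulindac against WT, 1300 to 2683 in antibiotics against BA, 2225 to 5051 in the interaction. It gave counts of the 10 genes called of 1 to 2 in BA tumours, 3 to 6 in day 30 BA, 2 to 5 in BA against A. For BA tumours, leaving out 1 library turned the sign of Cdkn2b (-0.16 to 0.49), Cdkn1a (-0.08 to 0.46), Bbc3 (-0.06 to 0.31), Glb1 (-0.05 to 0.34), Lmnb1 (-0.3 to 0.23). For A, leaving out 1 library turned the sign of Cdkn2b (-0.18 to 0.25), Ccng1 (-0.12 to 0.06). For A with sulindac against WT, leaving out 1 library turned the sign of Trp53 (-0.02 to 0.31), Mdm2 (-0.06 to 0.1), Ccng1 (-0.01 to 0.05). For Apcfl/+ tumours, leaving out 1 library turned the sign of Cdkn2b (-0.15 to 0.06), Ccng1 (-0.1 to 0.2), Lmnb1 (-0.03 to 0.28). For BA against A, leaving out 1 library turned the sign of Trp53 (-0.08 to 0.13). For antibiotics against BA, leaving out 1 library turned the sign of Ccnd1 (-0.03 to 0.03). For sulindac against A, leaving out 1 library turned the sign of Cdkn1a (-0.04 to 0.24), Trp53 (-0.17 to 0.13), Ccng1 (-0.04 to 0.14), Ccnd1 (-0.26 to 0.29), Bbc3 (-0.23 to 0.02), Glb1 (-0.12 to 0.09). For the interaction, leaving out 1 library turned the sign of Cdkn1a (-0.53 to 0.01), Mdm2 (-0.03 to 0.17). The count of genes called fell by over 1.5 times in BA tumours without tumour 4 (1380) or WT proximal colon replicate 1 (696) or 3 (1089), under antibiotics against BA without antibiotic replicate 5 (1300) and in the interaction without WT proximal colon replicate 3 (2225). For APCfl/fl, replicates 1 and 8 were left out in turn, and replicate 5 after the data were seen. The cause was not tested. Replicate numbers did not pair the samples, since no comparison had a correlation over 0.1 for every number, and the block results are given here alone. Depth limits Cdkn2a at day 30, where all libraries held at most 5 reads.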

Other observations

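The APCfl/fl library with Cdkn2a at 28.2 normalised CPM, replicate 5, also held other genes far above the other 15 day 4 libraries of the small intestine. These genes were chosen after their values were seen. Tff1 was at 57.1 normalised CPM, where the highest other library was at 0.258. Gkn1 was at 40.8 (highest other 1.12), Ctse at 120 (4.70), Muc6 at 35.3 (1.504), Msln at 138 (9.10) and Wnt7b at 22.6 (1.17). Tff1, Gkn1 and Muc6 are known from gastric epithelium. By the ratio to the highest other library, Cdkn2a ranked 4 among all genes.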
